A study of Mus musculus with 9 samples.

Results

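The nuclear-encoded subunits of the mitochondrial respiratory chain and ATP synthase were followed through livers of mice injected with acetaminophen. They were picked by gene symbol (Nduf genes of the a, b, c, s and v series, Sdha to Sdhd, Uqcr genes, Cox4 to Cox8 genes and Atp5 genes), leaving out pseudogenes named with -ps, and by a mean level of at least 1 FPKM over the 9 libraries. FPKM counts the fragments of a transcript per length and per library total. Of the 16857 genes in the deposited table, 94 carried such a symbol without the pseudogene ending and 91 reached the level. They comprise 39 genes of complex I, 8 complex I assembly factors (Ndufaf1 to Ndufaf8), 4 of complex II, 8 of complex III, 15 of complex IV and 17 of complex V, with Ndufa4 and Ndufa4l2 placed in complex IV, where their proteins are known to reside. The genes left below the level were Cox6a2 (0.0421 FPKM), Cox4i2 (0.0962) and Ndufb4c (0.233), and those just above it were Ndufa4l2 (1.27) and Cox7a1 (1.33). The mitochondrially encoded subunits were not analysed here, so each complex below is described by its nuclear genes only.

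Complex I oxidises NADH and complex II oxidises succinate, which is also a step of the citric acid cycle, and both hand electrons to coenzyme Q. Complex III passes them on to cytochrome c and complex IV to oxygen, and the proton gradient that builds up on the way drives ATP synthase, complex V. Hepatocytes are rich in mitochondria, and the reactive metabolite of acetaminophen is known to bind mitochondrial proteins and impair respiration. Many genes of the chain are known to carry promoter sites for the factors NRF1, YY1 and the ETS protein GABP, whose activity is raised by the coactivators of the Ppargc1 family.

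All mice had received acetaminophen (labelled APAP), and no library shows an uninjured liver. There were 4 groups of whole-liver RNA libraries, 3 from wild-type mice given saline, 2 from wild-type mice given leonurine (Leo, the alkaloid SCM-198), 2 from mice labelled Adipor2 knockout given saline and 2 from mice with that label given leonurine. Adipor2 is a receptor for the fat-cell hormone adiponectin. The sources used here give neither strain, sex, age, dose or times nor the deleted part of Adipor2. They also do not state that each library is a different mouse, so the p-values below rest on variation among these libraries that may be only technical.

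Adipor2 transcript lay at 141, 126 and 135 FPKM in wild type given saline, at 78.5 and 88.2 in wild type given leonurine, at 70.1 and 76.0 in labelled knockouts given saline and at 75.7 and 85.0 in labelled knockouts given leonurine. It was thus present in every library labelled as knockout. Recovered depth was 35316653 to 38996734 fragments per library, and the genes described here rested on 8 to 43308 fragments each. The hepatocyte genes Alb, Apoa1, Ttr and Cyp2e1 were at 973 FPKM or more in every library, as the label of liver asks. Cps1 lay at 432 to 1086 FPKM and the transcription factor gene Hnf4a at 129 to 235. Transcripts of 4 Y-linked genes summed to 4154 to 5275 fragments in 7 libraries and to 0 and 2 in the labelled knockouts given leonurine, so that in comparisons with that group sex and the labelled conditions cannot be told apart. The 10 most abundant genes of a library took 20.5% to 30.0% of its fragments, the most in the second library of wild type given leonurine. FPKM of every other gene falls when that share rises, and the sums, counts of calls and medians are therefore also given after median-ratio scaling, in which each library is divided by a size factor (0.850 to 1.15) set by the typical gene. Values of single genes are on the deposited scale unless they are said to be scaled.

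The promoters are shown first, with counts of the motifs searched in them. In RefSeq promoter windows of build GRCm38.p6, which run from 250 bases before to 50 bases after a gene's start, 76 of the 91 genes were found by symbol. A gene with several starts has several windows and was counted once, as holding a motif if any of its windows did. The palindromic motif of NRF1, searched like the others on both strands, was in 19 of them and in 5.19% of all 27025 genes with a window, or 12.2% of the 8450 windows of genes tested here. The ETS motif (CCGGAAG) was also in 19 of the 76 genes (25%), and in 9.93% and 21.1% of the larger sets. The YY1 motif (AAGATGGC) was in 11 of the 76 (14.5%), and in 3.19% and 5.54%. A search for SP1 (GGGCGG) gave 44.7%, 38.2% and 68.7%, and one for the estrogen-related receptor alpha (TCAAGGTCA) gave 2.63%, 0.466% and 0.331%. At least 1 of the NRF1, ETS and YY1 motifs was found in 42 of the 76 genes (55.3%). The share was 34.0% of the genes with a window tested here and 16.4% of all genes with a window. By complex, the NRF1 letters were in 7 of 34 genes of complex I, 2 of 3 of complex II and 1 of 5 of complex III. They were in 1 of 12 of complex IV, 6 of 15 of complex V and 2 of 7 of the assembly factors. These counts describe letters, not bound sites, and motifs may overlap each other. The stretches below, of 100 bases each and read on the gene's own strand, show the motifs in genes whose values are given later, with the motif matches in capitals (NRF1 and ETS in Sdhd, NRF1 at both places in Sdha, ETS in Cox6b1, NRF1 in Atp5c1, YY1 and then ETS in Atp5j). They lie on the minus strand at chr9:50603850-50603949 (Sdhd), chr13:74350259-74350358 (Sdha), chr7:30626115-30626214 (Cox6b1), chr2:10080433-10080532 (Atp5c1) and chr16:84834985-84835084 (Atp5j).
Sdhd: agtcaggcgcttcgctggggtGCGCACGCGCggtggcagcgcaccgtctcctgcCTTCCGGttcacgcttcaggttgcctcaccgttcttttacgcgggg
Sdha: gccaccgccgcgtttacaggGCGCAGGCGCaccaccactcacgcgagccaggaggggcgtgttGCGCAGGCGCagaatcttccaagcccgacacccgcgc
Cox6b1: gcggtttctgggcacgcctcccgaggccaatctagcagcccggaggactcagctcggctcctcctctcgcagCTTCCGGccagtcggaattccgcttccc
Atp5c1: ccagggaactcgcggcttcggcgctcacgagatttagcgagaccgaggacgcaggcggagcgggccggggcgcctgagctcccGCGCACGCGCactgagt
Atp5j: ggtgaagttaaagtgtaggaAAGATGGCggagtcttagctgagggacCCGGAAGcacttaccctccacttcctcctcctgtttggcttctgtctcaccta

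Within each complex, levels per length differed widely between subunits. Means over the 9 libraries ran from 1.61 (Ndufb4b) to 192 FPKM (Ndufa3) in complex I, from 91.8 (Sdhb) to 159 (Sdhd) in complex II, from 89.5 (Uqcrc2) to 247 (Uqcrh) in complex III, from 1.27 (Ndufa4l2) to 444 (Cox6b1) in complex IV and from 48.1 (Atp5mpl) to 544 (Atp5b) in complex V. Assembly factors, which are not part of the finished complex I, were lower, at 2.01 (Ndufaf6) to 10.8 (Ndufaf2). Subunits that have tissue-specific twins showed the liver forms as the abundant ones. Cox6b1 had 444 FPKM where Cox6b2, a form known from testis, had 0.531 to 11.0 over the libraries, and Cox7a2 had 77.6 to 197 where Cox7a1, the heart and muscle form, had 0.445 to 2.35. Subunit c of the ATP synthase ring, encoded by Atp5g1, Atp5g2 and Atp5g3, had Atp5g3 as its most abundant gene, at 162 to 394 FPKM against 87.1 to 137 for Atp5g1 and 84.8 to 164 for Atp5g2. Counts for Ndufb4 with Ndufb4b and for Ndufs6 with Ndufs6b may be split between near-identical copies, and 30 of the 91 genes overlap the span of another gene, 17 of them a gene of the table, so these values are uncertain where strand was not used in counting.

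The first comparison asked how leonurine changed the chain in wild-type injured liver. Summed over the 91 genes, wild type given leonurine held 88.6% and 65.6% of the wild-type saline mean in its 2 libraries, and the saline libraries held 97.9% to 103%. After median-ratio scaling these shares were 90.1% and 80.0%, against 95.4% to 103% in the saline libraries. Complex II was lowest, at 80.5% and 55.7% on the deposited scale and 81.8% and 68.0% scaled, followed by complex V at 84.8% and 60.8% (scaled 86.1% and 74.1%). The sums of complex III were 87.7% and 66.2%, those of complex IV 91.7% and 68.7% and those of complex I 92.3% and 69.7%. In each of these complexes both leonurine libraries lay below all saline libraries on both scales, whereas the assembly factors, at 95.9% and 81.9% deposited and 97.5% and 99.9% scaled, overlapped the saline range of 90.4% to 114% (scaled 92.8% to 114%). In whole tissue, fewer cells of a type and less RNA per cell cannot be told apart.

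**Figure D1:**
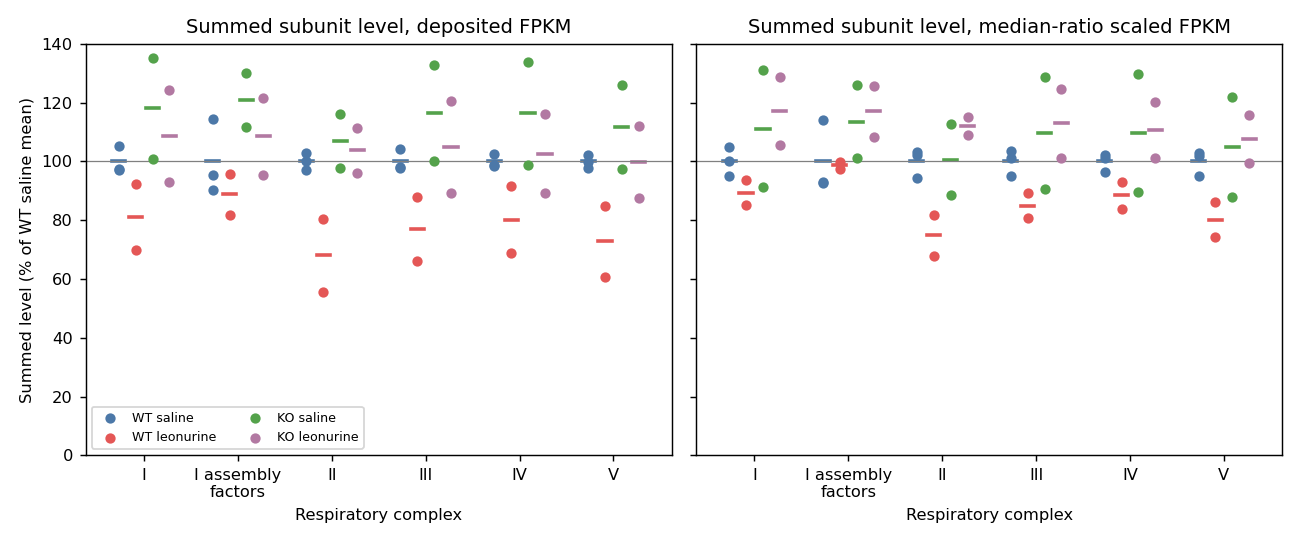
Summed FPKM of each complex in every library (points; bars are group means) as a percentage of the wild-type saline mean, on the deposited scale (left) and after median-ratio scaling (right). The mean of wild type given leonurine lies lowest in complexes I to V, with complex II at 80.5% and 55.7% on the deposited scale, and the libraries of the labelled knockout given saline spread widely, at 99.0% and 131% over all 91 genes.

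With limma on log2(FPKM + 1), 0 of the 91 genes passed an adjusted p under 0.05 in either direction with leonurine in wild type, while 4.72% of the 10451 genes tested were called lower and 1.90% higher. At an unadjusted p under 0.05, 26 were lower and 1 higher, against 18.1% and 6.31% of all genes. On the scaled values 0 again passed (3.90% of all genes lower and 3.14% higher), with 14 lower and 1 higher at an unadjusted p under 0.05 (12.3% and 11.0%). Log2 fold changes were below 0 for 85 of 91, with a median of -0.37 beside -0.12 over all genes tested, and after scaling for 76 of 91 with a median of -0.23 beside 0.00. The medians were -0.37 in complex I, -0.57 in complex II, -0.37 in complex III, -0.34 in complex IV, -0.39 in complex V and -0.19 in the assembly factors. On the scaled values they were -0.23, -0.42, -0.22, -0.18, -0.23 and -0.05. Both leonurine libraries lay below all 3 saline libraries in 62 of the 91 genes (34.2% of all genes tested), namely 24 of complex I, 4 of complex II, 7 of complex III, 12 of complex IV, 12 of complex V and 3 assembly factors. Scaled values gave 54 of 91, against 24.5% of all genes. In the other direction 1 gene lay higher without overlap (12.8% of all genes), and 4 did after scaling (22.6%). With a correction for transcript length added after seeing the data, 7 genes were called lower (5.21% of all genes), namely Sdha, Sdhb, Atp5a1, Atp5g3, Uqcrc1, Ndufa6 and Ndufc2, at adjusted p of 0.0247 to 0.0449.

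The 4 subunits of complex II all lay lower in wild type given leonurine. Sdha, the flavoprotein that binds succinate, had 161, 170 and 167 FPKM with saline and 126 and 89.5 with leonurine. Sdhb, the iron-sulfur subunit, had 101.3, 91.9 and 86.4 with saline and 70.9 and 44.2 with leonurine. For both genes the groups did not overlap, and the second leonurine library was the lower one. The log2 fold change was -0.64 ± 0.18 (SE) for Sdha (adjusted p = 0.0648, limma) and -0.72 ± 0.23 for Sdhb (adjusted p = 0.0984). The membrane anchors Sdhc (-0.43, adjusted p = 0.189) and Sdhd (-0.51, adjusted p = 0.174) did not pass either. Sdhd, whose promoter letters stand above, had 176, 162 and 161 FPKM with saline and 140 and 97.1 with leonurine.

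On the deposited scale the smallest p of the chain was in ATP synthase, whereas after scaling it was in complex III (Uqcrc1, adjusted p = 0.0664) and with the length correction in complex I (Ndufa6, 0.0247). Atp5a1, the alpha subunit of its catalytic head, had 395, 424 and 385 FPKM with saline and 292 and 209 with leonurine in wild type, groups that did not overlap. Its log2 fold change of -0.70 ± 0.19 (SE) came closest to the threshold (adjusted p = 0.0579, limma). Atp5b, the catalytic beta subunit and the most abundant gene of the set, had 598, 618 and 599 FPKM with saline and 479 and 306 with leonurine (-0.66, adjusted p = 0.0995). Atp5g3, the main source of subunit c, had 319, 328 and 309 with saline and 238 and 162 with leonurine (-0.70, adjusted p = 0.0956), while its twins Atp5g1 (-0.07) and Atp5g2 (-0.27) had adjusted p of 0.855 and 0.476. The difference between these twins was not tested. Among the stalk and head subunits with printed promoters, Atp5c1 had a log2 fold change of -0.65 (adjusted p = 0.0957) and Atp5j one of -0.39 (0.25).

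In complex III, Uqcrc1, a core protein of the matrix side, had 123, 120 and 115 FPKM with saline and 90.2 and 58.5 with leonurine, without overlap (-0.71 ± 0.20 SE, adjusted p = 0.0709, limma). Uqcrfs1, the Rieske iron-sulfur protein, had 93.2, 88.1 and 103 with saline and 86.1 and 64.2 with leonurine (-0.34, adjusted p = 0.294). Uqcrh and Uqcr11, the most abundant genes of complex III, had log2 fold changes of -0.28 and -0.41 with adjusted p of 0.478 and 0.306. In complex I, the core subunits Ndufs1 (-0.45, adjusted p = 0.165) and Ndufv1 (-0.25, 0.425) and the abundant accessory subunits Ndufa3 (0.01, 0.982) and Ndufb9 (-0.39, 0.337) did not pass. Complex IV gave -0.39 for Cox6b1 (0.287), -0.31 for Cox4i1 (0.383), -0.29 for Cox6a1 (0.414), -0.30 for Cox8a (0.459) and -0.52 for Cox7a2l (0.139), a protein of supercomplex assembly. The 1 gene higher at an unadjusted p under 0.05 was the assembly factor Ndufaf3, at 4.89, 2.33 and 3.199 FPKM with saline and 5.50 and 4.89 with leonurine (0.51 ± 0.21, adjusted p = 0.181).

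**Figure D2:**
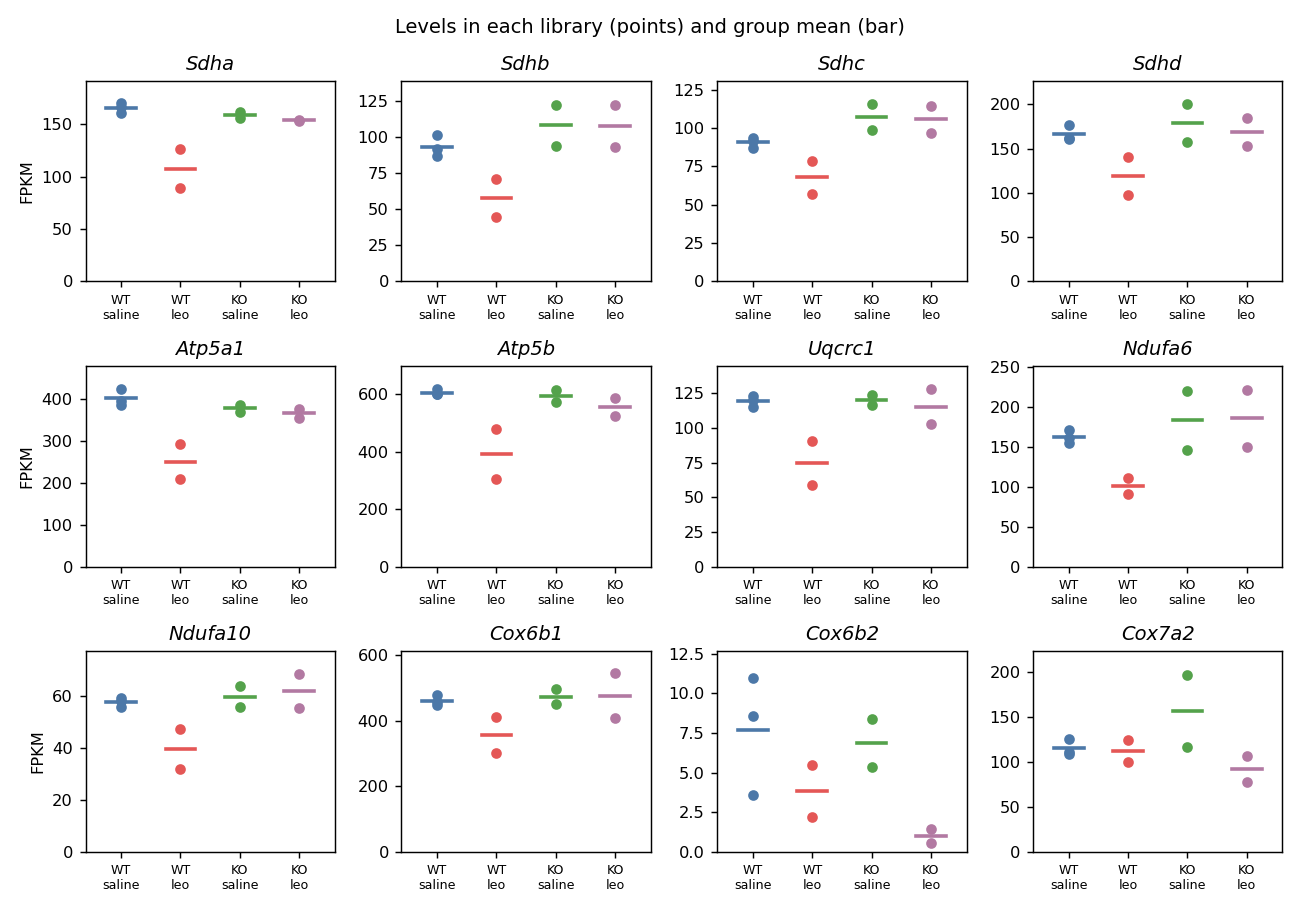
FPKM (vertical axes from 0) of 12 genes in each library (points) and group means (bars). Both wild-type leonurine libraries lie below every other library in complex II (Sdha, Sdhb, Sdhc and Sdhd) and in Atp5a1 and Uqcrc1, and Cox6b2 is lowest in labelled knockouts given leonurine, at 1.43 and 0.531.

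The 2 leonurine libraries of wild type did not weigh alike. The second was the lowest of all 9 libraries for 77 of the 91 genes (59 after scaling), with 90 of 91 below the wild-type saline mean and a median of -0.58 on the log2 scale. In the first library 75 of 91 were below that mean, with a median of -0.18. Over all genes tested the corresponding medians were -0.22 and -0.03. Without the first leonurine library, 17 genes were called lower (5 of complex I, 4 of complex II, 2 of complex III, 1 of complex IV and 5 of complex V), where 10.8% of all genes were called lower, with the remaining lone library assumed to vary like the other groups. Without the second, 0 were called. The second library also had the highest share of fragments in 10 genes and the smallest size factor. Hepatocyte markers, most of whose sum is Alb, summed to 73773 to 81200 FPKM over 10 genes in wild type given saline and 51855 to 68246 with leonurine. Neutrophil markers summed to 10.7 to 49.6 with saline and 66.8 to 156 with leonurine over 12 genes. None of these markers was at 0 in every library. Of the tested markers, 2 of 10 hepatocyte genes were called lower and 1 higher (Fgb 1.74, adjusted p = 0.0198, limma), and 3 of 8 neutrophil genes were called higher. Sinusoidal endothelial markers had 1 of 9 called higher and 1 lower, stellate cell markers 1 of 9 higher, cholangiocyte markers 1 of 3 higher, erythroid markers 1 of 5 lower and Kupffer cell markers 0 of 11. After scaling 1 hepatocyte gene was called lower and 4 neutrophil genes higher, and the other counts were as on the deposited scale. The part of cell makeup in the lower chain levels was not tested.

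**Figure D3:**
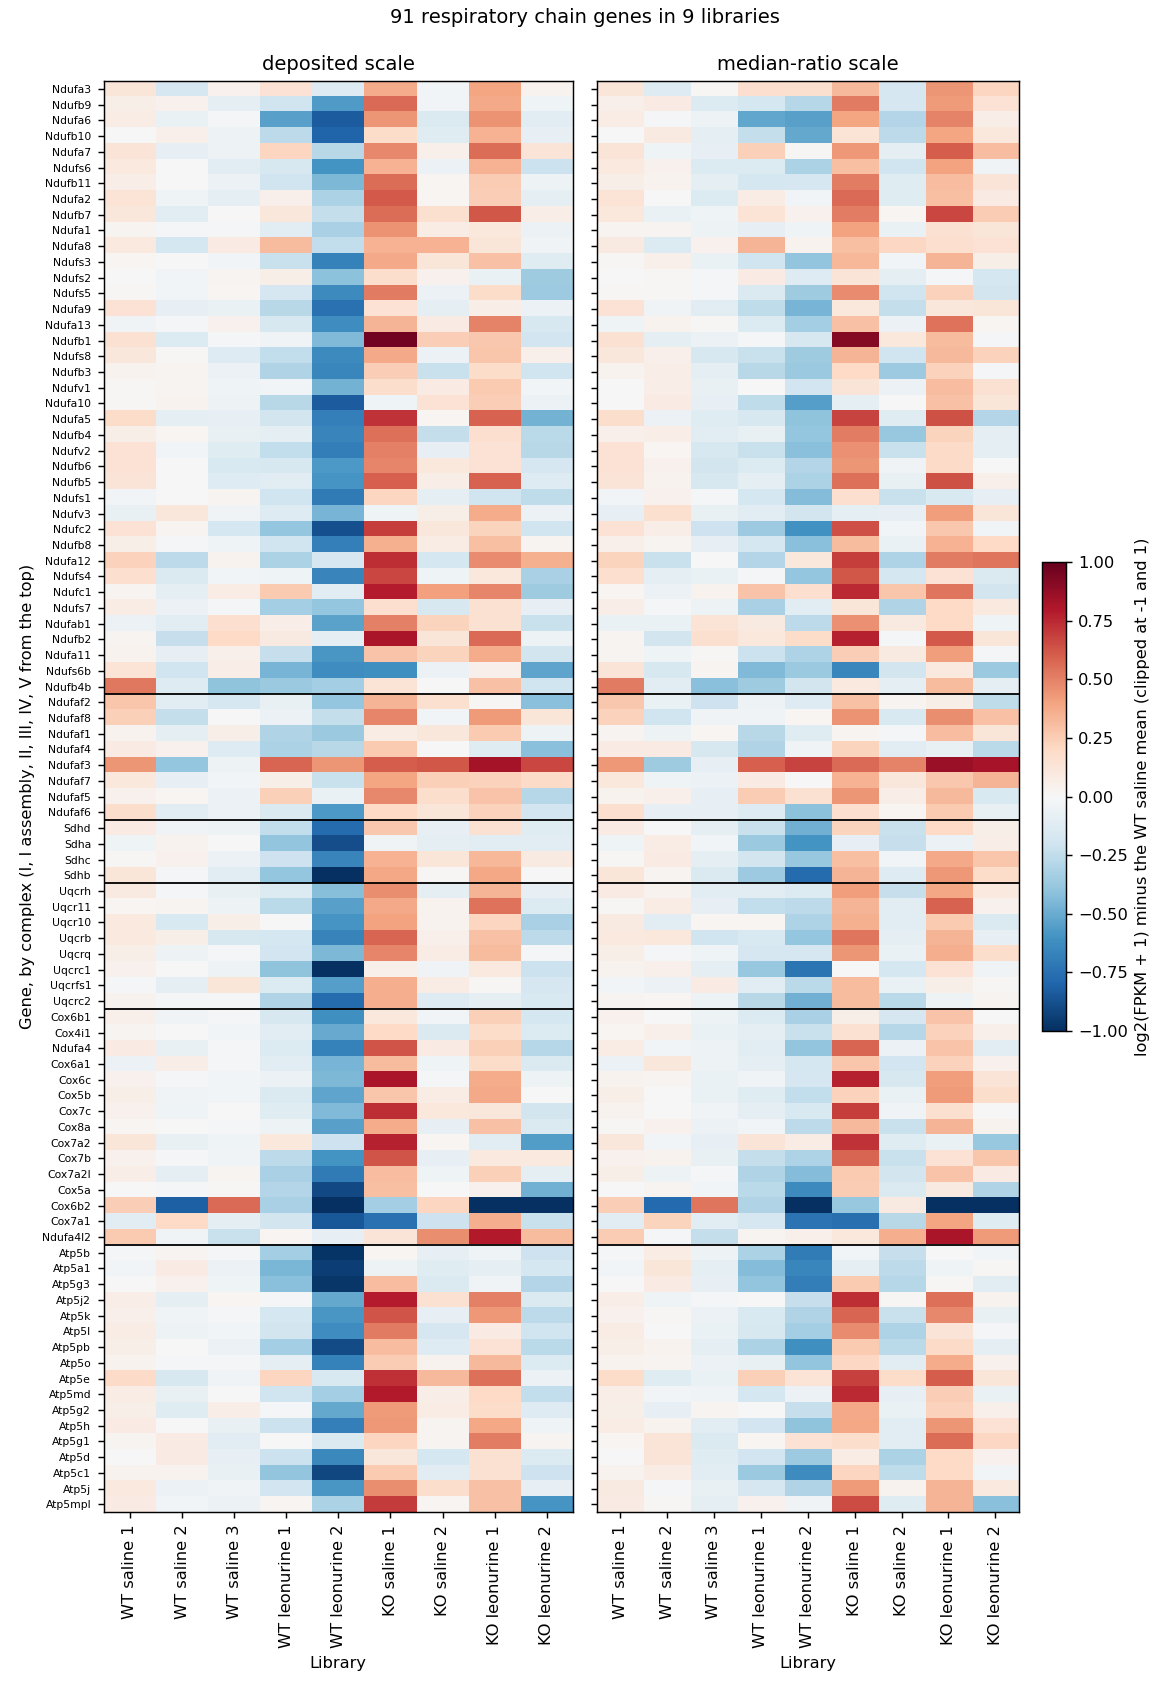
Difference from the wild-type saline mean (log2(FPKM + 1), colours clipped at -1 and 1) for the 91 genes (from top to bottom by complex and level) in the 9 libraries (from left to right), on the deposited scale (left) and after median-ratio scaling (right). The second wild-type leonurine library is blue in 90 of 91 genes on the deposited scale, and the first library of labelled knockouts given saline is red in 84.

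Genes that work with the chain were read in the same way from lists of pathway members, beside 4.72% of all genes called lower and 1.90% higher (scaled 3.90% and 3.14%). Of 21 tested genes for electron carriers and coenzyme Q synthesis, 3 were called lower and 1 higher with leonurine in wild type, with a median log2 fold change of -0.33 (the same counts after scaling, median -0.19). Coq8a, an atypical kinase needed for coenzyme Q synthesis, fell from 18.0, 18.2 and 17.3 FPKM to 8.92 and 5.26 (-1.26 ± 0.29 SE, adjusted p = 0.0347, limma). Its relative Coq8b rose from 5.91, 4.30 and 3.95 FPKM to 15.8 and 11.7 (1.37 ± 0.22, adjusted p = 0.0102). Both genes had groups that did not overlap. The call of Coq8b held without any 1 library, while that of Coq8a ended without 4 of the 9 libraries taken singly, up to an adjusted p of 0.261 without the second leonurine library. Coq10a, a coenzyme Q binding protein, fell by 0.98 (adjusted p = 0.0223), with 4 of the 9 single omissions ending the call (up to 0.0897). Cyc1, the cytochrome c1 subunit of complex III that the symbol rule does not take in, had a log2 fold change of -0.63 (0.112), and cytochrome c itself (Cycs) one of -0.07 (0.894).

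Of 19 citric acid cycle and pyruvate dehydrogenase genes, 2 were called lower and 0 higher, with a median of -0.39 (the same counts after scaling, median -0.24). These were the pyruvate dehydrogenase subunits Dlat (-0.88, adjusted p = 0.0256) and Pdhb (-0.95, adjusted p = 0.0345), each a call that ended without 4 of the 9 libraries, up to 0.147 and 0.200 without the second leonurine library. Of 17 regulators of mitochondrial gene expression, 3 were called lower and 1 higher (median -0.25), and after scaling 2 lower and 1 higher (median -0.11). The call that scaling ended was that of Ppara, a nuclear receptor for fatty acids, which had fallen by 0.94 (adjusted p = 0.0407). Ppargc1b, a coactivator of respiratory genes, fell from 1.17, 1.32 and 1.70 FPKM to 0.174 and 0.09998 (-1.07 ± 0.18, adjusted p = 0.0111), a call that ended without 2 of the 9 libraries (up to 0.0809). Its better known relative Ppargc1a had a log2 fold change of -0.16 (adjusted p = 0.645). Prkaa2 encodes one of the catalytic alpha subunits of the energy sensor AMPK and fell by 0.88 (adjusted p = 0.00960, up to 0.0648 without the second leonurine library). Tfb1m, which methylates the small mitochondrial ribosomal RNA, rose by 0.53 (0.0406), and this held in 2 of the 9 fits that left out a library. None of 41 tested assembly factors outside the symbol rule (median -0.13, scaled 0.00638), 11 carriers (-0.35, scaled -0.21) or 16 import genes (-0.32, scaled -0.18) passed on either scale.

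In the labelled knockout, the difference between leonurine and saline in the same genes was small beside the spread of the libraries. Sex and the labelled conditions cannot be told apart in this difference. The summed level was 131% and 99.0% of the wild-type saline mean in the saline libraries and 117% and 90.04% in the leonurine libraries, so the groups overlapped, and they did so in each of the 5 complexes. By limma, 0 of 91 genes passed in either direction (1.49% of all genes were called lower and 0.603% higher), and 3 were lower and 0 higher at an unadjusted p under 0.05 (18.9% and 3.52% of all genes). After scaling 0 passed as well (1.11% higher and 0.871% lower among all genes), with 2 higher and 1 lower at an unadjusted p under 0.05 (8.91% and 8.24%). The median log2 fold change was -0.12, beside -0.19 over all genes, and 0.08 after scaling, beside -0.02. Complex medians were -0.10 (I), -0.03 (II), -0.19 (III), -0.12 (IV), -0.19 (V) and -0.12 (assembly factors), and each was above 0 after scaling, at 0.02 to 0.18. Groups did not overlap, with leonurine lower, in 11 of 91 genes (40.8% of all genes; 1 lay higher, against 8.61%), or in 2 of 91 after scaling (21.5%), where 11 lay higher without overlap (20.2%).

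Cox6b2 had the smallest p of the chain in the labelled knockout but did not pass. Its levels were 5.36 and 8.40 FPKM with saline and 1.43 and 0.531 with leonurine, while wild type had 8.59, 3.58 and 11.0 with saline and 5.45 and 2.20 with leonurine. The knockout groups did not overlap, and the lowest value rested on 12 fragments. The log2 fold change was -2.00 ± 0.47 (SE) in the labelled knockout (adjusted p = 0.0642, limma). It passed with the compared groups alone (0.029) and without wild-type saline 2 (0.036), wild-type leonurine 1 (0.0495) or wild-type leonurine 2 (0.0494). The next smallest p belonged to Cox7a2, the liver form of its subunit, at 197 and 117 FPKM with saline and 106 and 77.6 with leonurine (-0.73, adjusted p = 0.164), and to the assembly factors Ndufaf4 (-0.40, 0.196) and Ndufaf2 (-0.45, 0.254). Among the neighbouring lists, Sdhaf1, which assembles the iron-sulfur subunit of complex II, fell by 1.02 (adjusted p = 0.0243), as the 1 called of 41 assembly factors outside the rule; the call ended without 5 of the 9 libraries (up to 0.14). Electron carriers, citric acid cycle genes, regulators, carriers and import genes had 0 called in either direction, and all of these list counts were the same after scaling.

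Between the saline groups, labelled knockout against wild type, 0 of 91 genes passed by limma (0.00957% of all genes were called in each direction), and 4 were higher and 0 lower at an unadjusted p under 0.05 (9.95% and 3.24% of all genes). After scaling 0 passed (0.0191% of all genes in each direction), with 2 higher and 0 lower at an unadjusted p under 0.05 (6.94% and 6.34%). The median log2 fold change was 0.21, beside 0.08 over all genes, and 0.12 after scaling, beside 0.00. Genes of complex I (0.23), the assembly factors (0.24), complex III (0.21), complex V (0.18), complex IV (0.15) and complex II (0.15) had medians above 0. After scaling these were 0.13, 0.15, 0.12, 0.0821, 0.0577 and 0.0529 in the same order. The smallest p belonged to Ndufaf3, at 5.63 and 5.68 FPKM in labelled knockouts against 4.89, 2.33 and 3.199 in wild type (0.61 ± 0.21 SE, adjusted p = 0.301), followed by Ndufb1 (0.61, 0.348), Ndufc1 (0.60, 0.351) and Ndufaf7 (0.31, 0.377). Both knockout libraries lay above all wild-type libraries in 26 of 91 genes, a share close to the 27.6% of all genes, and in 6 of 91 after scaling (18.3%). They lay below in 1 gene (11.1%), and in 5 after scaling (18.7%). None of the lists beside the chain had a called gene here on either scale. Deposited-scale medians were 0.08 for electron carriers, 0.26 for outside assembly factors, -0.04 for the citric acid cycle, -0.06 for regulators, 0.11 for carriers and 0.23 for import, and scaled ones 0.0313, 0.18, -0.13, -0.13, 0.0183 and 0.14.

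Of the saline libraries of the labelled knockout, the first was the highest of all 9 for 61 of the 91 genes (48 after scaling). Its median over the 91 genes was 0.38 above the wild-type saline mean, and that of the second library was 0.02. Transcript length moved with this library. Genes of the chain are short, with a median length of 842 nt as implied by the table beside 3268 nt over all genes tested. In that library, the 51 chain genes under 1000 nt had a median of 0.46 and the 40 longer ones 0.31, while the 544 other genes under 1000 nt had 0.46 and the 9816 longer ones 0.02. The first leonurine library of the labelled knockout showed the same order, at 0.29 and 0.19 for the chain and 0.23 and -0.06 for other genes. With a length correction added after seeing the data, the median between the saline groups became -0.05, with complexes between -0.13 (V) and -0.03 (I) and the assembly factors at 0.08. The part of RNA quality or library preparation in this length pattern was not tested.

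**Figure D4:**
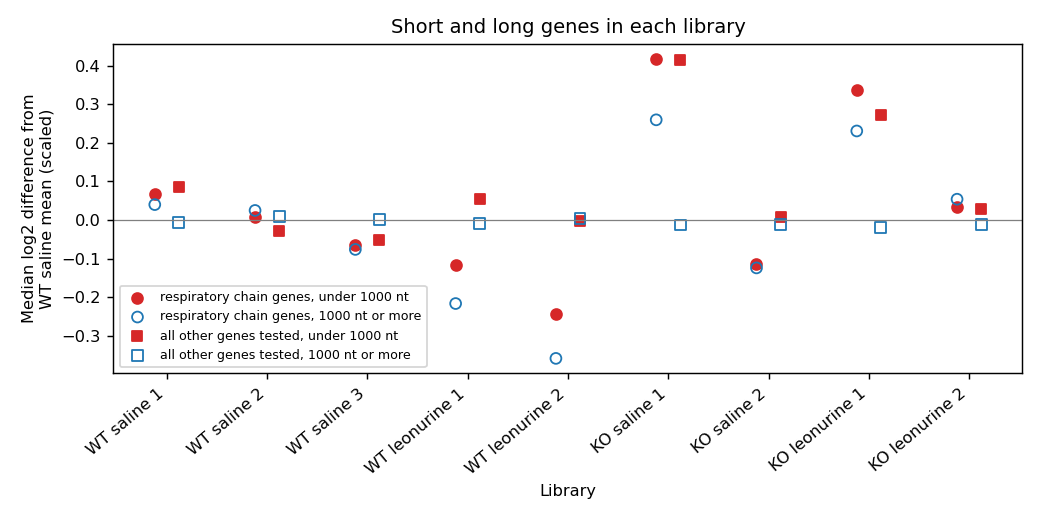
Median log2 difference from the wild-type saline mean, after median-ratio scaling, for short and long genes of the chain and for all other genes tested, by library. In the first library of labelled knockouts given saline, short chain genes and short other genes both stand near 0.42, and long other genes near -0.01.

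Under leonurine, labelled knockout lay above wild type in most of the chain. The median log2 fold change was 0.42, beside 0.01 over all genes, and 0.38 after scaling, beside -0.02. Complex medians were 0.40 (I), 0.59 (II), 0.42 (III), 0.38 (IV), 0.47 (V) and 0.27 (assembly factors), with 86 of 91 genes above 0, and after scaling 0.37, 0.55, 0.38, 0.35, 0.43 and 0.24. Values did not overlap, with the knockout higher, in 44 of 91 genes (25.6% of all genes), and in 71 of 91 after scaling (28.5%). The knockout lay lower without overlap in 1 gene (26.4%), and in 2 after scaling (30.0%). This comparison cannot tell sex and the labelled conditions apart. It uses the wild-type leonurine libraries of the first comparison and is not independent of it. It also inherits the length pattern above, and the length correction took its median to 0.22.

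Only Sdhb passed on the deposited scale, and it rose by 0.92 ± 0.26 (SE, adjusted p = 0.047, limma), where 6.99% of all genes were called higher and 5.25% lower. Its levels were 122 and 93.3 FPKM in labelled knockouts and 70.9 and 44.2 in wild type, without overlap. The call ended without any 1 of 8 libraries (adjusted p of 0.0537 to 0.23, highest without knockout leonurine 1), and held without wild-type leonurine 1 (0.0116). It also ended with no filter on low values (0.091) and with the compared groups alone (0.188). At an unadjusted p under 0.05, 29 of the 91 genes were higher and 1 lower, against 15.0% and 13.2% of all genes.

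After median-ratio scaling, 6 genes passed, all higher in the labelled knockout, where 9.04% of all genes passed higher and 7.03% lower. At an unadjusted p under 0.05 there were 31 higher and 1 lower (16.1% and 16.0% of all genes). They were Sdhb (0.88, adjusted p = 0.026) and Sdhc (0.61, 0.0389) of complex II, Ndufa6 (0.81, 0.0476), Ndufa10 (0.61, 0.031) and Ndufb8 (0.57, 0.0467), accessory subunits of complex I, and Uqcrc1 (0.61, 0.0425) of complex III. Ndufa6 had 221 and 149 FPKM in labelled knockouts against 111 and 90.7 in wild type, without overlap. Ndufa10 had 68.2 and 55.1 against 47.3 and 31.8, and Sdhc 115 and 96.8 against 78.6 and 56.9, also without overlap. These scaled calls numbered 0 without wild-type leonurine 2 or knockout leonurine 1, 1 (Sdhb) without any 1 of the wild-type saline libraries, 3 without wild-type leonurine 1, and 12 without either saline library of the labelled knockout (9.56% and 9.52% of all genes). With the length correction 7 genes passed (9.21% of all genes), these 6 and Atp5h, a stalk subunit of ATP synthase (0.41, adjusted p = 0.0497). The 1 gene lower at an unadjusted p under 0.05 was Cox6b2 (-1.24, adjusted p = 0.12).

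Calls in the lists beside the chain are set here against 6.99% of all genes called higher and 5.25% lower (scaled 9.04% and 7.03%). Coq8a rose by 2.24 (adjusted p = 0.00343), from 8.92 and 5.26 to 42.9 and 30.8 FPKM, and Coq8b fell by 1.29 (0.0102), and both calls held without any 1 library, as did that of the sulfide oxidising enzyme Sqor (1.37, 0.00601). In all, 4 of 21 electron carrier genes were higher and 1 lower, and 3 of 41 outside assembly factors were higher, among them Acad9 (0.87, 0.0122) and Cmc1 (0.78, 0.0127). Of 19 citric acid cycle genes 2 were higher (Dlat 0.84, 0.0262, and Suclg2 0.81, 0.047), of 17 regulators 2 were higher and 1 lower (Ppargc1b 0.96, 0.0136, and Pprc1 -0.96, 0.0229), and of 11 carriers and 16 import genes 0 were called. After scaling 6 citric acid cycle genes were higher (Dlat, Suclg2, Idh2, Pdhb, Idh3b and Suclg1), 2 carriers were higher (Slc25a10 0.88, adjusted p = 0.0295, and Vdac1 0.68, 0.043), 1 outside assembly factor was lower (Sdhaf1 -0.59, 0.0474), and the other list counts were as on the deposited scale. These calls ended without 8 of the 9 libraries taken singly for Suclg2, 3 for Dlat, 2 each for Acad9, Ppargc1b and Pprc1 and 1 for Cmc1. Hepatocyte markers, most of whose sum is Alb (65050 and 67808 FPKM against 46277 and 26493), summed to 87562 to 91612 FPKM in labelled knockouts given leonurine, above the 51855 to 68246 of wild type given leonurine, erythroid markers to 361 to 784 against 92.8 to 94.98 over 7 genes. Of the tested markers, 2 of 10 hepatocyte genes were called higher and 1 lower (Fgb -1.64, adjusted p = 0.0199), 4 of 9 sinusoidal endothelial genes higher and 1 lower, 4 of 5 erythroid and 1 of 11 Kupffer cell genes higher, and 1 each of 8 neutrophil, 9 stellate cell and 3 cholangiocyte genes lower. After scaling 2 stellate cell genes were lower and the other counts were the same. The part of cell makeup in the higher chain levels was not tested.

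**Figure D5:**
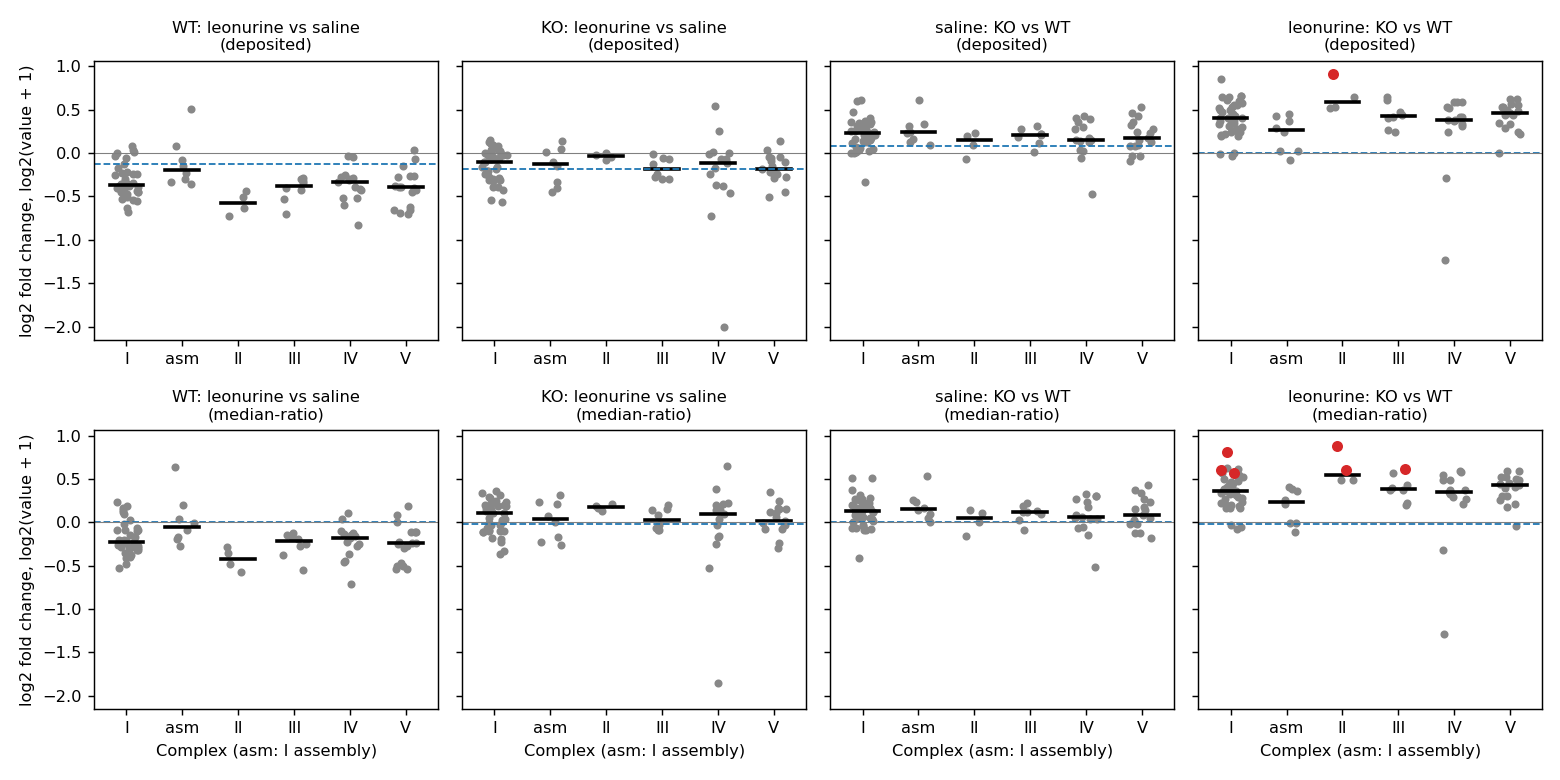
Log2 fold changes of the 91 genes (points) by complex in the 4 pairwise comparisons, on the deposited scale (top) and after median-ratio scaling (bottom); black bars are complex medians, dashed lines the median of all genes tested, and red points genes with an adjusted p under 0.05. The single red point at the top is Sdhb (0.92), and 6 points are red after scaling.

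Whether leonurine acted differently in the 2 genotypes was tested as the difference of the leonurine responses. Labelled knockouts given leonurine enter this difference, so sex and the labelled conditions cannot be told apart in it. By limma 0 of 91 genes passed in either direction (1.71% of all genes were called higher and 2.03% lower), with 2 higher and 0 lower at an unadjusted p under 0.05 (8.67% and 11.9% of all genes). On the scaled values 0 passed (3.50% higher and 2.19% lower among all genes), with 14 higher and 0 lower at an unadjusted p under 0.05 (11.9% and 11.1%). The median difference was 0.22, beside -0.07 over all genes, and 0.28 after scaling. Complex II had the highest median, 0.51, and the assembly factors the lowest, -0.06, and so they did after scaling (0.57 and -0.0148). The smallest p belonged to Cox7a1 (1.06 ± 0.38 SE, adjusted p = 0.155), a gene of 8 to 40 fragments in a library, and to Atp5a1 (0.65 ± 0.28, adjusted p = 0.229), Sdha (0.59, 0.246) and Uqcrc1 (0.64, 0.272). For Atp5a1 the response was -0.70 in wild type and -0.05 in the labelled knockout, whose levels were 386 and 369 FPKM with saline and 376 and 356 with leonurine. Atp5a1 and Sdha passed without wild-type leonurine 1 (0.0487 and 0.0491; 5.37% of all genes), and with the length correction Ndufa6 (0.0275) and Ndufb10 (0.0472) did (4.33% of all genes). A difference in response was thus not detectable for any single gene of the chain with all 9 libraries on either scale.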

How the data were processed

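Whole-liver RNA was sequenced in 9 libraries, and the authors deposited 1 table of FPKM values for 16857 genes. Per the submitters' processing notes the tools were fastp, HISAT2, HTSeq and R version 3.2.0, with mouse build mm10; which step each did, the annotation, gene filters and whether counting was stranded are not given in the sources used here. Columns were matched to samples by the labels' RNA numbers, with 0 numeric columns left over, and groups came from the titles. Ratios of FPKM between libraries returned whole fragment numbers, up to a common factor per gene, for 16857 of 16857 genes (tolerance 0.0001), and with them the lengths in nt that the table implies.

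All tests used limma (version 3.58.1, under R version 4.3.3) and log2(FPKM + 1), a scale that understates changes of low genes, for 10451 genes with at least 1 FPKM in at least 2 libraries. All 9 libraries entered a linear model of the 4 group means (5 residual and 4.4 prior degrees of freedom, variance trend on mean expression), and p-values were adjusted by Benjamini-Hochberg over all genes tested in a comparison; a gene was called under 0.05. The fit was tested on simulated data. The set of genes, the lists and the rule for named genes were chosen with earlier results of these data known. Genes named with values are the 2 most abundant per complex, the alternative isoforms, catalytic subunits, called genes, the 4 smallest p where fewer than 4 were called, and in each other list at most the 2 smallest p. Outside this rule, Ndufb8, Atp5h, Atp5c1, Atp5j and Sdhc and the genes Coq8a, Cyc1, Cycs, Tfb1m, Ppargc1a, Ppara, Sqor, Sdhaf1, Slc25a10, Vdac1 and those of the citric acid cycle called after scaling were picked after their values were seen. Alternatives were median-ratio scaling, a pseudocount of 0.1, no filter, leaving out libraries, a replicate block, fits of the compared groups alone, a fit without the labelled knockouts given leonurine and, added after seeing the data, a length correction and scaling combined with leaving out a library. The planned comparison of isoform proteins was not made.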

Additional observations from a re-analysis of the deposited data

Results flagged for a closer look

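No gene of the chain passed limma's test of a difference between the genotypes in the response to leonurine. On the deposited scale 3 genes of the lists that act beside the chain passed (labelled knockout minus wild type). Of all 10451 genes tested, 1.71% were called higher and 2.03% lower. The lists held 21 electron carrier, 41 outside assembly factor, 19 citric acid cycle, 17 regulator, 11 carrier and 16 import genes tested. Sex and the labelled conditions cannot be told apart in this difference, as it includes the labelled knockouts given leonurine. Coq8a, a kinase of coenzyme Q synthesis, had a difference of 2.31 ± 0.42 (SE, log2 scale, adjusted p = 0.0224); it lay at 12.1 and 23.8 FPKM in labelled knockouts given saline and 42.9 and 30.8 with leonurine, and its call ended without 5 of the 9 libraries taken singly, with an adjusted p of up to 0.0686 without knockout leonurine 1. Ppargc1b, a coactivator of respiratory genes, had a difference of 1.15 ± 0.26 (adjusted p = 0.0451), with 1.12 and 1.09 FPKM in labelled knockouts given saline and 0.861 and 1.64 with leonurine; its call ended without 8 of the 9 libraries, with an adjusted p of up to 0.116 without knockout saline 1. Tfb1m, the methyltransferase of the small mitochondrial ribosomal RNA, had a difference of -0.93 ± 0.19 (adjusted p = 0.0299), at 2.10 and 2.24 FPKM with saline and 1.37 and 1.41 with leonurine in labelled knockouts; its call ended without 7 of the 9 libraries, with an adjusted p of up to 0.097 without wild-type saline 2. After median-ratio scaling these 3 passed as well, and so did Sqor (1.22, adjusted p = 0.0227) and Dlat (1.07, adjusted p = 0.0358), which had adjusted p of 0.0633 and 0.0740 on the deposited scale. Of all genes tested, 3.50% were called higher and 2.19% lower after scaling. Ppargc1b and Tfb1m are low genes, for which log2(FPKM + 1) understates changes.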

How the results depend on the processing

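Groups of 2 or 3 libraries limit every count of calls, and a library left alone in its group was assumed to vary like the other groups. No call changed direction under any alternative run. Leonurine against saline in wild type had 7 genes called lower with the length correction, 0 to 17 without single libraries (17 without wild-type leonurine 1), and with scaling 1 called lower without that library and 1 called higher (Ndufaf3) without wild-type saline 1. Its median ran from -0.58 to -0.18 over the 91 genes, -0.58 to -0.17 in complex I, -0.83 to -0.32 in complex II and -0.27 to -0.0625 in the assembly factors, which stood at -0.0502 with scaling and -0.0510 with the length correction. In the labelled knockout, 1 gene was called lower (Cox6b2) with the compared groups alone, 0 to 1 without single libraries, and 1 with scaling without wild-type saline 2 or, as Cox7a2, without knockout saline 2. Scaled medians were 0.0810 for all 91, 0.106 for complex I, 0.0346 for assembly factors and 0.18 for complex II; length-corrected ones were 0.0515 for assembly factors and 0.12 for complex IV. On the deposited scale, medians without single libraries ran from -0.32 to 0.0575 (all), -0.34 to 0.11 (I) and -0.25 to 0.0119 (assembly factors). Between saline groups the length correction gave -0.0530 (all), -0.0263 (I), 0.0804 (assembly factors), -0.0875 (II), -0.0941 (III), -0.11 (IV) and -0.13 (V), and single omissions 0.0204 to 0.44 (I), 0.14 to 0.36 (assembly factors) and -0.0358 to 0.31 (II). Labelled knockout against wild type under leonurine had 6 genes called higher with scaling (9.04% of all genes) and 7 with the length correction (9.21%). It had 0 with no filter and 0 with the compared groups alone. Scaling without wild-type leonurine 1 gave 3, without wild-type leonurine 2 or knockout leonurine 1 gave 0, without either knockout saline library 12, without knockout leonurine 2 gave 6, and without any 1 wild-type saline library 1 (Sdhb), with 1 lower as well without wild-type saline 2. The length-corrected medians were 0.22 (all) and 0.13 (assembly factors), and single omissions gave 0.20 to 0.62 (all), 0.19 to 0.60 (I), 0.15 to 0.37 (assembly factors), 0.35 to 0.83 (II) and 0.14 to 0.64 (IV). For the difference of responses, 2 genes passed with the length correction, 0 to 2 without single libraries and 1 (Cox7a1) with scaling without wild-type leonurine 1, and medians ran from -0.0119 to 0.43 (all), -0.0465 to 0.43 (I), -0.17 to 0.0398 (assembly factors), 0.27 to 0.76 (II), -0.000465 to 0.45 (IV) and 0.0286 to 0.54 (V). Where no share of all genes is given for a fit without a library, its count of calls cannot be set against the whole table. The cause of these shifts was not tested.

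Whether replicate numbers pair the groups was not settled. Deviations of same-numbered libraries correlated at 0.0200 to 0.154. Between groups of 2 libraries these values are not separate, because deviations of replicates 1 and 2 mirror each other. In summed level of the 91 genes, replicate 1 was highest in all 4 groups on both scales. Deposited sums were 10323 FPKM against 9840 and 9774 in wild type given saline and 8844 against 6545 with leonurine. In labelled knockouts they were 13051.5 against 9880 with saline and 11703 against 8986 with leonurine. With the replicate number as a block, 2 genes were higher in labelled knockouts under leonurine (Ndufa6, adjusted p = 0.0399, and Sdhb, 0.0315) in place of 1, and no other count of called chain genes moved. Over single genes, 3886 values under an alternative kept their side of the threshold, 65 passed only there and 149 passed only in the reported fit. A value that passed in neither fit was counted as kept even where its sign changed.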
